A study of Mus musculus with 20 samples.

Results

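Gene sets named for B cells, the B cell receptor, germinal centres, immunoglobulin and plasma cells were followed through 7 comparisons of mouse myeloid cells and melanoma lines. They were chosen by name alone, from the words B_CELL, B_LYMPHOCYTE, BCR, PLASMA_CELL, IMMUNOGLOBULIN or GERMINAL within a set name, leaving out the BCR_ABL fusion sets. This gave 38 of the 3883 sets listed for bone marrow and spleen, and the same 38 were among the 3871 sets listed for the cell lines. Of these, 30 had names not ending in DN. The other 8 ended in DN, meaning genes that are lower in the state the name describes, and are counted apart. By name, 8 sets concerned receptor signalling, 4 precursor stages, 4 plasma cells and 1 the germinal centre, with 13 others on mature B cells, B cell lymphoma and activation. No name contained IMMUNOGLOBULIN. The DN names were 3 on precursor stages, 3 on plasma cells and 2 others. Sets held 16 to 317 genes, with a median of 55.

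RNA was sequenced from 14 preparations of myeloid cells from adult C57BL/6 mice and from 6 cultures of melanoma cells. Bone marrow came from animals bearing B16F10 tumours (3 libraries), animals bearing YUMM3.3 tumours (2 libraries) and healthy animals (3 libraries). Each of those conditions had 2 spleen libraries, and the YUMM3.3 and B16F10 lines, kept 4 days in culture, had 3 libraries each. The labels do not say which libraries came from which animal. B16F10 is a long-established melanoma subline from C57BL/6 mice, chosen for its ability to colonise lung, and YUMM3.3 derives from a melanoma of genetically engineered mice. All myeloid preparations shared 1 step, removal of cells carrying CD3e, a chain of the T cell receptor complex. That step does not target B cells, and the labels name no step that does. The levels of myeloid and B cell marker genes were not analysed here, so the label "myeloid" was not checked against them.

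B cells form in bone marrow. Committed progenitors rearrange the immunoglobulin heavy chain gene, divide as large pre-BII cells, stop dividing as small pre-BII cells while the light chain gene rearranges, and leave the marrow as immature B cells that mature in the spleen. Their receptor is membrane immunoglobulin held with CD79A and CD79B. Antigen binding activates the kinases SYK and BTK and the phospholipase PLCG2, and further downstream NF-kB is released when the proteasome degrades its inhibitor. Plasma cells, the antibody-secreting end stage, lose much of the B cell programme under factors such as IRF4 and PRDM1.

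The measured value was the normalised enrichment score (NES), which says how far the genes of a set gather at one end of a list of all genes ranked between 2 groups, scaled to permuted data. A positive NES below stands for the group named first and a negative one for the other, and a set is called higher or lower where its deposited false discovery rate q (FDR q) was below 0.05. The sign rests on taking each report to list sets of the group its title names first. In the comparisons with healthy animals the deposited scores of those reports are negative, and in the others positive. There is 1 value per set and comparison, with no spread between libraries, and the q values do not measure that spread. Sequencing depth is unknown, since no value per library was analysed here. Within a tissue, both tumours were set against the same healthy libraries, so those results are not independent. Sets also share genes, so neighbouring values are not separate observations. In these bulk preparations, fewer B cells and less of these RNAs per cell cannot be told apart.

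With B16F10 tumours, a larger share of the 30 sets than of sets in general was called lower in both tissues. In marrow the calls divided, with nearly as many higher as lower. In bone marrow of B16F10-bearing against healthy animals, 6 of the 30 sets (20.0%) were lower, beside 5.00% of all listed sets, and 5 were higher (16.7%), beside 20.1%. In spleen of B16F10-bearing against healthy animals, 6 were again lower (20.0%), beside 1.60% of all sets, and 2 were higher (6.67%), beside 16.6%. Receptor signalling sets made up 4 of the 6 in marrow and 5 of the 6 in spleen. The median NES of the 30 sets was -1.22 in marrow and -1.05 in spleen, where the median over all listed sets was 0.96 and 1.09. Such a median turns mainly on which side holds more sets, since few of the 30 sets have values between the sides. In marrow 9 of the 30 sets were listed higher and 21 lower, called or not, beside 2182 and 1701 of all sets. In spleen these counts were 14 and 16, beside 2900 and 983. Of the 8 sets ending in DN, 5 were lower and 2 higher in marrow with B16F10, and 1 was lower and 4 higher in spleen.

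With YUMM3.3 tumours the calls also divided in marrow, and in spleen they were close to the general shares. In bone marrow of YUMM3.3-bearing against healthy animals, 5 of 30 were lower (16.7%), beside 6.52% of all sets, and 4 were higher (13.3%), beside 9.68%. In spleen of YUMM3.3-bearing against healthy animals, 2 were lower (6.67%), beside 5.31%, and 4 were higher (13.3%), beside 15.6%, shares near those of all sets. The median NES was -1.10 in marrow, against 0.74 over all sets, and 0.96 in spleen, against -0.69 over all sets. In marrow 13 of the 30 sets were listed higher and 17 lower, called or not, beside 2060 and 1823 of all sets. In spleen these counts were 23 and 7, beside 1876 and 2007. Of the 8 sets ending in DN, 1 was lower and 0 higher in marrow with YUMM3.3, and 0 were lower and 5 higher in spleen.

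Between the tumours, calls in spleen fell on the lower side with B16F10 and calls in marrow on both sides. In spleen of B16F10-bearing against YUMM3.3-bearing animals, 5 of 30 sets were lower (16.7%), beside 1.47% of all sets, and 0 were higher, beside 9.63%. At an unadjusted deposited p below 0.05 the counts there were 10 lower and 2 higher, beside 238 lower and 888 higher of all 3883 sets. In bone marrow, 2 were lower with B16F10 (6.67%), beside 8.40%, and 3 were higher (10.0%), beside 8.09%. Between the cell lines in culture, 0 of 30 were called in either direction, beside 11.8% of all sets higher in YUMM3.3 and 1.47% lower. At an unadjusted deposited p below 0.05, 3 of the 30 were higher in YUMM3.3 and 0 were lower. Of all 3871 sets, 1027 were higher and 196 lower at that p.

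**Figure D1:**
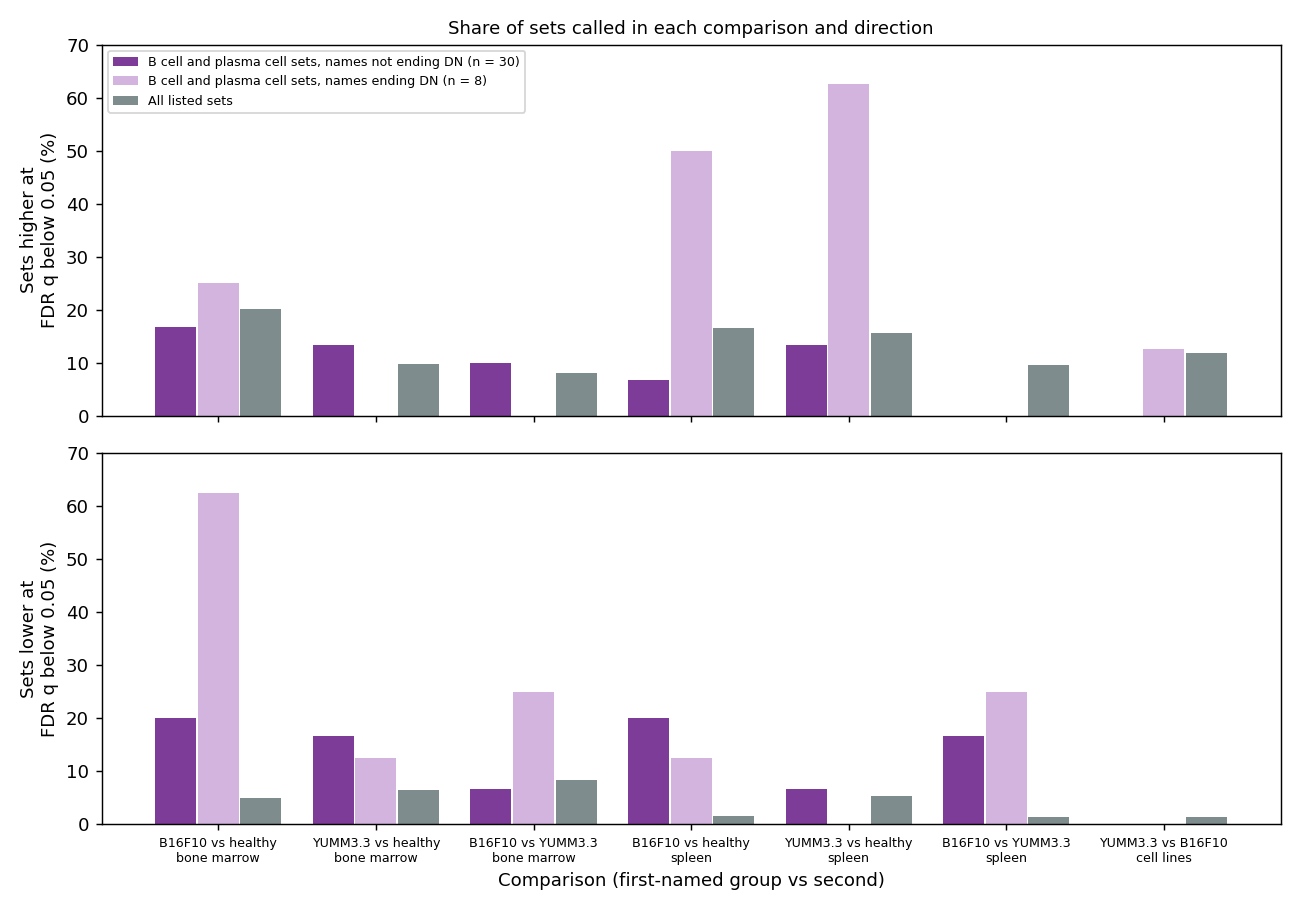
Share of gene sets (y axis, percent) at a deposited FDR q below 0.05, higher (top) and lower (bottom) in the first-named group of each comparison (x axis), for the 30 sets with names not ending in DN, the 8 ending in DN and all listed sets. In the lower panel the 30 sets stand at 20.0% for B16F10 against healthy in both tissues, above 5.00% and 1.60% of all sets.

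**Figure D2:**
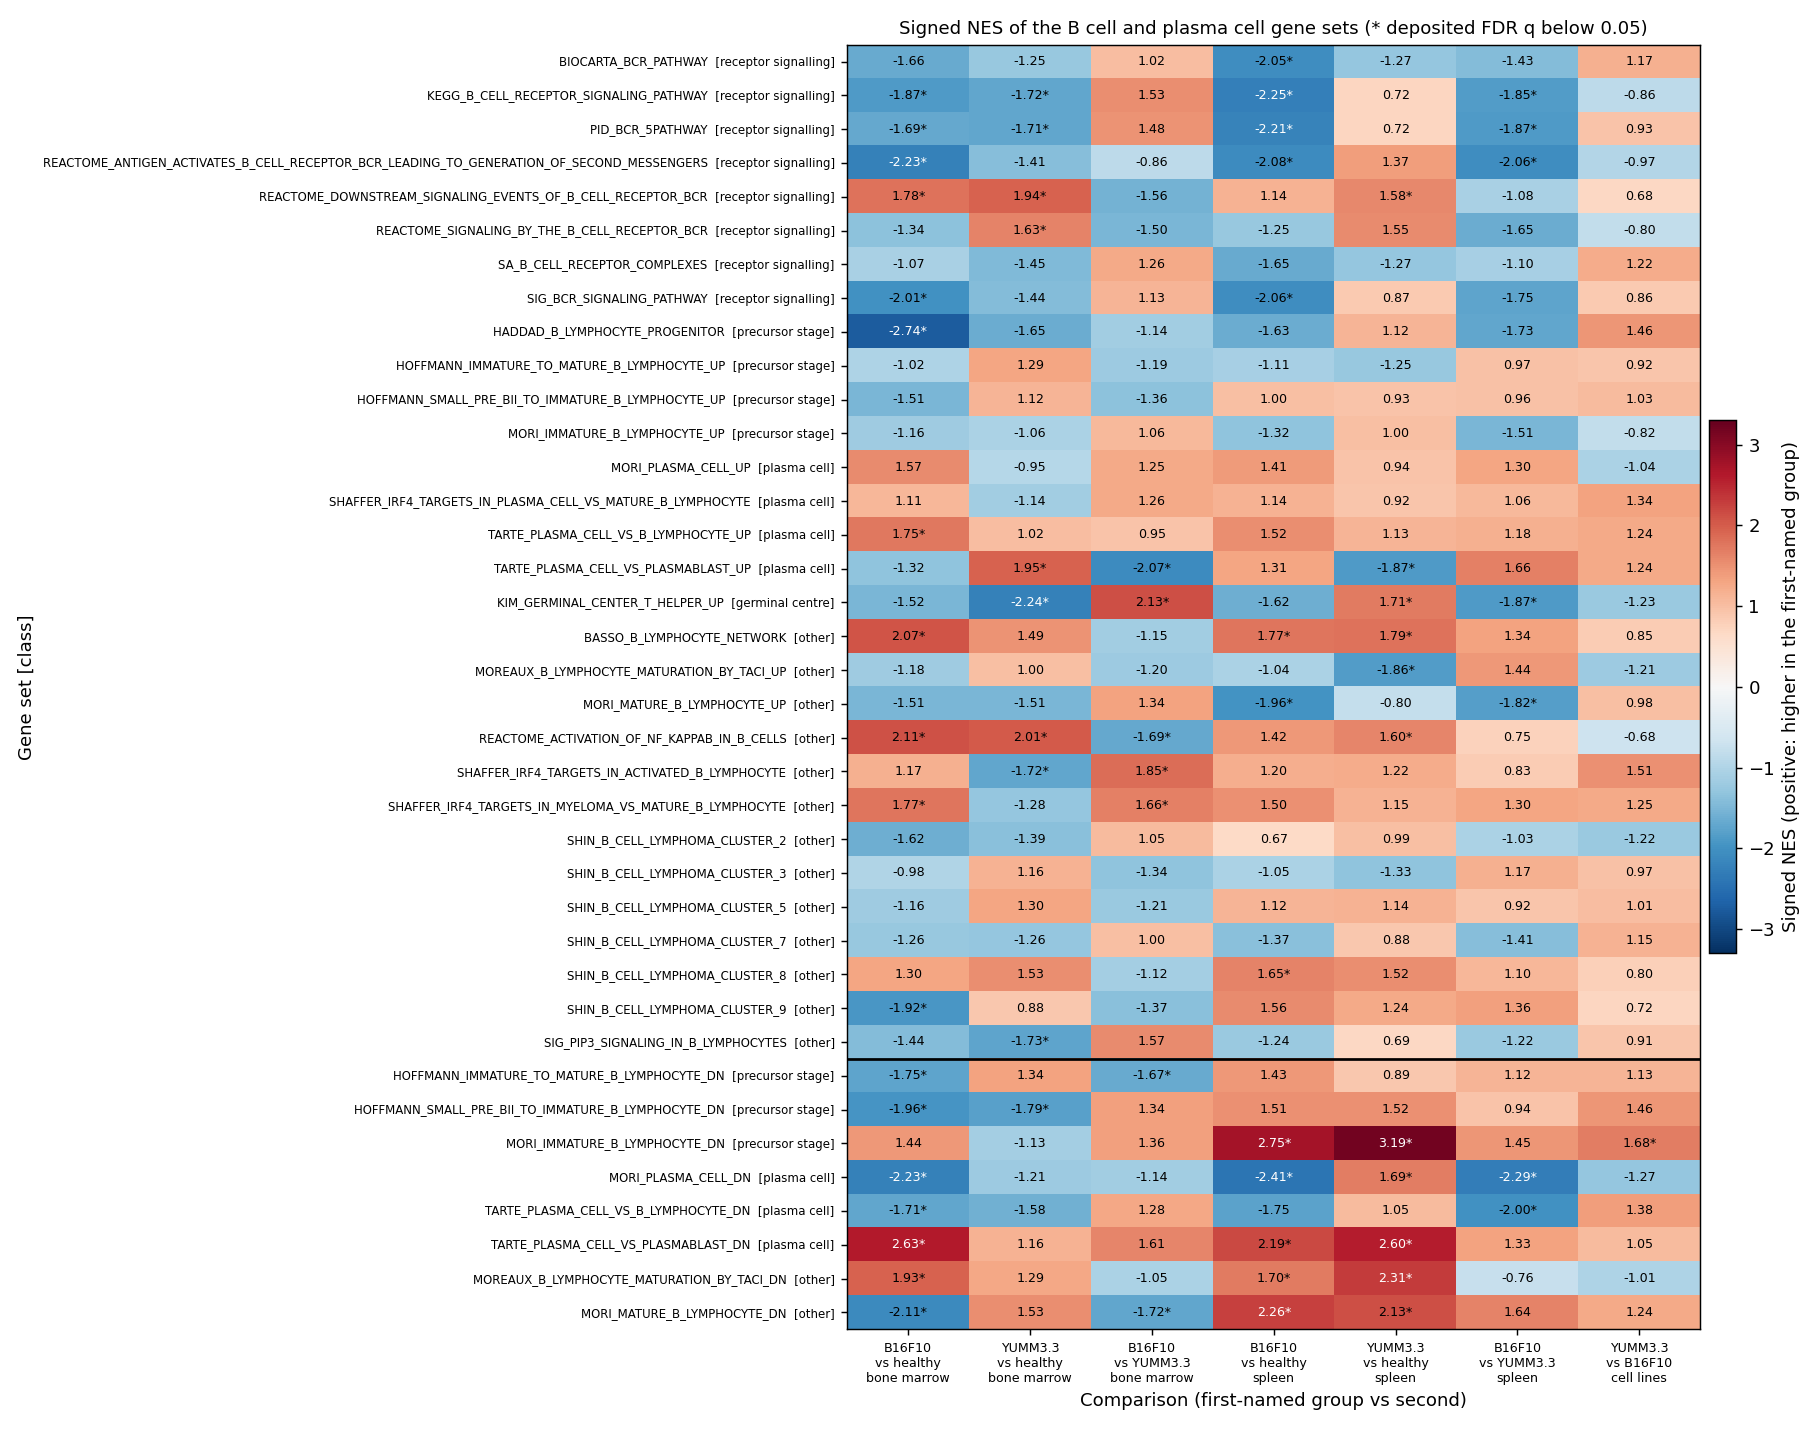
Signed NES (colour and printed value) of the 38 sets (rows, class in brackets; the line divides off the names ending in DN) in the 7 comparisons (columns), with an asterisk at FDR q below 0.05. The receptor signalling rows at the top run from -2.25 to 1.14 for B16F10 against healthy spleen, and from -1.27 to 1.58 for YUMM3.3 against healthy spleen.

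Receptor signalling sets held most of the lower calls of the 30 sets with B16F10 against healthy animals. They are maps of the same pathway, so their calls do not repeat each other independently. In marrow with B16F10 the antigen activation, KEGG and SIG sets below all peaked at the same rank, 1620, in the authors' deposited table. The Reactome set for the first step after antigen binding, REACTOME_ANTIGEN_ACTIVATES_B_CELL_RECEPTOR_BCR_LEADING_TO_GENERATION_OF_SECOND_MESSENGERS, had an NES of -2.23 with B16F10 against healthy bone marrow in the authors' deposited table, with FDR q listed as 0. Its NES with B16F10 against healthy spleen was -2.08 (FDR q = 0.00357) in the authors' deposited table. The general pathway maps, which follow the signal from the receptor to its kinases, went the same way with this tumour. KEGG_B_CELL_RECEPTOR_SIGNALING_PATHWAY had an NES of -1.87 in marrow (FDR q = 0.0133) and -2.25 in spleen (FDR q = 0.000128) in the authors' deposited table. SIG_BCR_SIGNALING_PATHWAY had an NES of -2.01 in marrow (FDR q = 0.00331) and -2.06 in spleen (FDR q = 0.0046), in the authors' deposited table. PID_BCR_5PATHWAY followed in the authors' deposited table with -1.69 in marrow (FDR q = 0.0498), just under the threshold, and -2.21 in spleen (FDR q = 0.000354). These 4 of the 30 sets not ending in DN were called lower with B16F10 in both tissues. The same count was not made over all sets, where the share cannot exceed the 1.60% lower in spleen. BIOCARTA_BCR_PATHWAY, a smaller map of 29 genes, was lower in spleen with an NES of -2.05 (FDR q = 0.00526) in the authors' deposited table. In marrow its NES was -1.66 in the authors' deposited table and was not called (FDR q = 0.0623).

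In spleen these sets drew on a larger part of their members. The leading edge, the genes ranked up to the point where the score peaks, held 35 of the 67 KEGG genes (52%) in spleen of B16F10-bearing animals and 21 (31%) in marrow, as counted from the rounded percentages in the authors' deposited table. For the PID set it held 29 of 60 genes (48%) in spleen and 17 (28%) in marrow in the authors' deposited table. For SIG_BCR_SIGNALING_PATHWAY it held 25 of 45 genes (56%) in spleen and 17 (38%) in marrow in the authors' deposited table. The peak itself lay deeper in the ranked list in spleen, at 19% to 22% of its length, against 11% to 13% in marrow, for these 3 sets in the authors' deposited table.

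With YUMM3.3 tumours, 2 of the 8 receptor sets were lower and 2 higher in marrow, beside 6.52% of all sets lower and 9.68% higher. In spleen 0 were lower and 1 higher, beside 5.31% and 15.6%. In marrow, KEGG_B_CELL_RECEPTOR_SIGNALING_PATHWAY had an NES of -1.72 (FDR q = 0.0366) and PID_BCR_5PATHWAY -1.71 (FDR q = 0.0391) in the authors' deposited table. The antigen activation set, at -1.41 (FDR q = 0.153), and SIG_BCR_SIGNALING_PATHWAY, at -1.44 (FDR q = 0.137), were not called in the authors' deposited table. In spleen with YUMM3.3, the KEGG and PID sets had an NES of 0.72 each and the antigen activation set 1.37 in the authors' deposited table, none of them called. The direct comparison in spleen placed all 8 receptor sets on the lower side with B16F10, at -1.08 to -2.06. Beside 1.47% of all sets lower and 9.63% higher, 3 of the 8 were called lower. Those were the antigen activation set, at -2.06 (FDR q = 0.00368), PID_BCR_5PATHWAY, at -1.87 (FDR q = 0.026), and the KEGG set, at -1.85 (FDR q = 0.0321), in the authors' deposited table. In marrow the direct comparison called 0 of the 8 in either direction, beside 8.09% of all sets higher and 8.40% lower. At an unadjusted deposited p below 0.05, 2 were higher and 2 lower with B16F10 there, beside 692 and 598 of all 3883 sets.

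The sets for late signalling lay on the other side. REACTOME_DOWNSTREAM_SIGNALING_EVENTS_OF_B_CELL_RECEPTOR_BCR was higher in marrow with both tumours, with an NES of 1.78 with B16F10 (FDR q = 0.0132) and 1.94 with YUMM3.3 (FDR q = 0.00285) in the authors' deposited table. In spleen it was higher with YUMM3.3, at 1.58 (FDR q = 0.0452), and not called with B16F10, at 1.14 (FDR q = 0.437), in the authors' deposited table. REACTOME_ACTIVATION_OF_NF_KAPPAB_IN_B_CELLS, which covers the last part of that pathway, ran beside it. Its NES was 2.11 and 2.01 in marrow with B16F10 and with YUMM3.3, and 1.42 and 1.60 in spleen in the same order, all but the 1.42 called in the authors' deposited table. Both Reactome sets are known to contain many proteasome subunits. KEGG_PROTEASOME, a set chosen after these values were seen, had an NES of 2.52 and 2.33 in marrow and 2.06 and 1.83 in spleen, in that order, all 4 called in the authors' deposited table. Between the tumours in marrow, the NF-kB set was lower with B16F10 than with YUMM3.3, at -1.69 (FDR q = 0.0344), and so was KEGG_PROTEASOME, at -2.00 (FDR q = 0.00231), in the authors' deposited table. The part of the proteasome genes in the Reactome scores was not tested. The parent set, REACTOME_SIGNALING_BY_THE_B_CELL_RECEPTOR_BCR, holds both early and late steps. Its values were -1.34 in marrow and -1.25 in spleen with B16F10, and 1.63 (FDR q = 0.0468) in marrow and 1.55 in spleen with YUMM3.3, the marrow value with YUMM3.3 being the 1 called in the authors' deposited table. SA_B_CELL_RECEPTOR_COMPLEXES, a set of 21 genes for the complexes formed at the receptor, was called in none of the 7 comparisons. Its NES against healthy animals ran from -1.07 to -1.65 in the authors' deposited table.

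**Figure D3:**
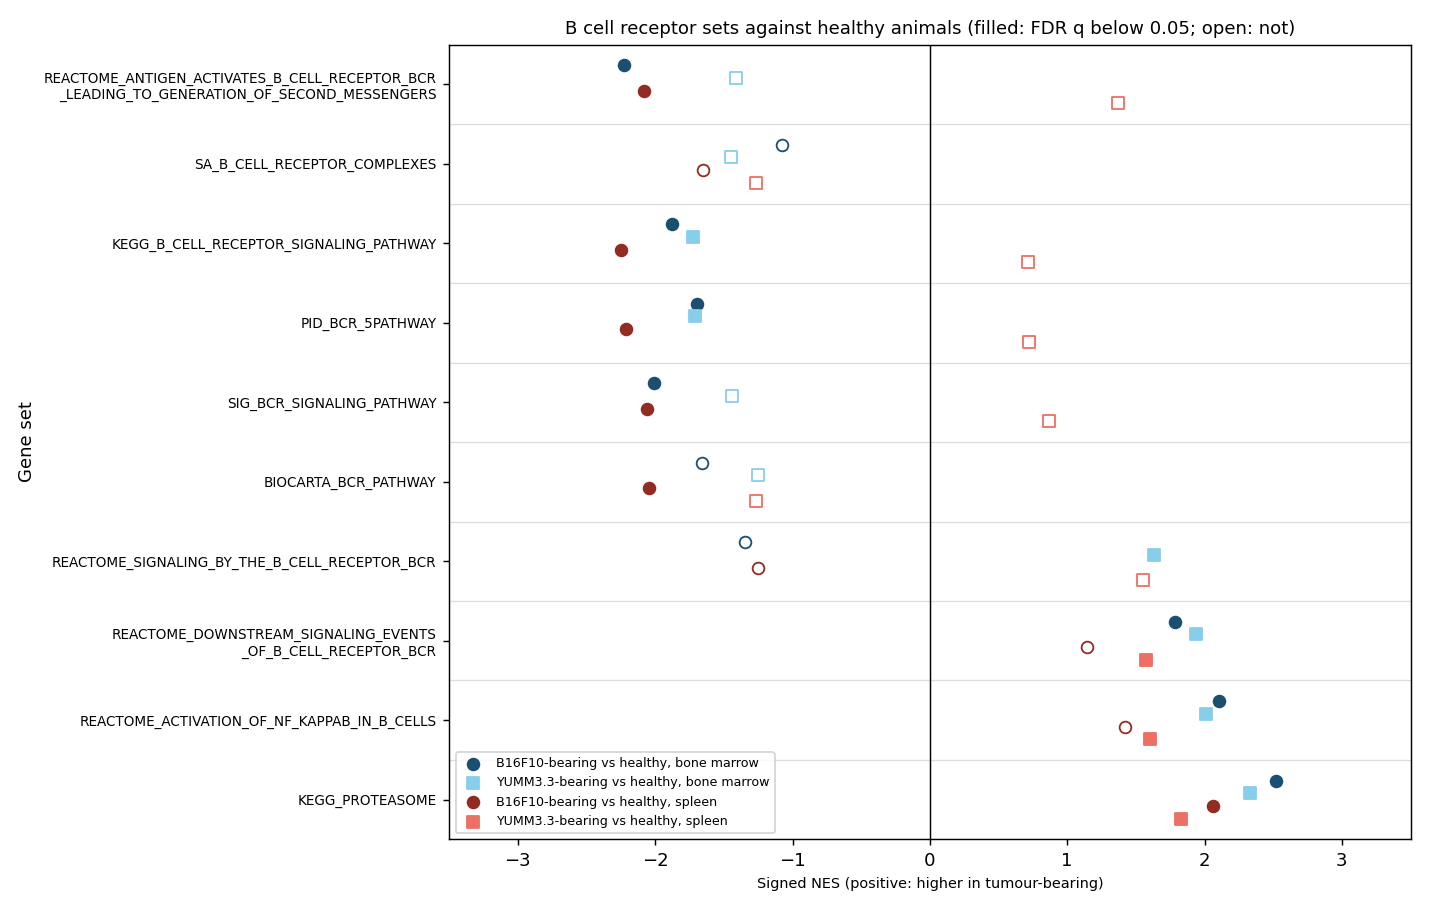
Signed NES (x axis) of the 8 receptor signalling sets, the NF-kB set and KEGG_PROTEASOME (rows) for each tumour against healthy animals in bone marrow and spleen, with filled symbols at FDR q below 0.05 and open symbols otherwise. The antigen activation, KEGG, PID and SIG sets lie between -1.69 and -2.25 with B16F10 in both tissues, while the downstream, NF-kB and proteasome sets lie on the positive side in every one of these 4 comparisons.

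In bone marrow of B16F10-bearing against healthy animals, 1 of the 4 precursor sets not ending in DN was lower and 0 were higher, and of the 3 ending in DN 2 were lower and 0 higher, beside 5.00% of all sets lower and 20.1% higher. HADDAD_B_LYMPHOCYTE_PROGENITOR, drawn from human progenitors committed to the B lineage, had an NES of -2.74 there in the authors' deposited table, the lowest of all 3883 sets, and FDR q was listed as 0. About 75 of its 215 genes (35%) formed the leading edge in the authors' deposited table. It was not called with YUMM3.3 in marrow, at -1.65 (FDR q = 0.0544), nor in spleen, at -1.63 with B16F10 (FDR q = 0.117) and 1.12 with YUMM3.3 (FDR q = 0.437), in the authors' deposited table. The other 3 precursor sets not ending in DN were called in none of the 7 comparisons. In marrow with B16F10, HOFFMANN_IMMATURE_TO_MATURE_B_LYMPHOCYTE_UP had an NES of -1.02, MORI_IMMATURE_B_LYMPHOCYTE_UP -1.16 and HOFFMANN_SMALL_PRE_BII_TO_IMMATURE_B_LYMPHOCYTE_UP -1.51 in the authors' deposited table. Read by name, a HOFFMANN set ending in DN holds genes that decline at the step, and so genes of its earlier stage. One ending in UP would hold genes of the later stage. The precursor class was fixed by words in the names and mixes both kinds. These readings were not checked against the genes. HOFFMANN_SMALL_PRE_BII_TO_IMMATURE_B_LYMPHOCYTE_DN was lower in marrow with both tumours, at -1.96 with B16F10 (FDR q = 0.00578) and -1.79 with YUMM3.3 (FDR q = 0.0253), in the authors' deposited table. HOFFMANN_IMMATURE_TO_MATURE_B_LYMPHOCYTE_DN was lower in marrow with B16F10, at -1.75 (FDR q = 0.0361), and listed at 1.34 with YUMM3.3, where it was not called, in the authors' deposited table. In the direct marrow comparison it was lower with B16F10, at -1.67 (FDR q = 0.0394), in the authors' deposited table. The third, MORI_IMMATURE_B_LYMPHOCYTE_DN, had an uncalled NES of 1.44 in marrow with B16F10 in the authors' deposited table.

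The MORI sets give 1 signature for each stage from pre-BI cell to plasma cell, including pre-BI and pre-BII sets that the name rule did not take in. In marrow of B16F10-bearing animals, MORI_SMALL_PRE_BII_LYMPHOCYTE_UP was lower, at -2.01 (FDR q = 0.00331), and MORI_SMALL_PRE_BII_LYMPHOCYTE_DN higher, at 1.88 (FDR q = 0.00581), in the authors' deposited table. The set of the dividing stage, MORI_LARGE_PRE_BII_LYMPHOCYTE_UP, was higher at 1.73 (FDR q = 0.0192) in the authors' deposited table. So small and large pre-BII sets were called on opposite sides in the same marrow. MORI_PRE_BI_LYMPHOCYTE_UP, at -1.21, was not called there in the authors' deposited table. MORI_PRE_BI_LYMPHOCYTE_DN, genes low at the pre-BI stage, was lower in marrow, at -1.88 (FDR q = 0.0128), and in spleen, at -1.87 (FDR q = 0.0288), with B16F10 in the authors' deposited table. HOFFMANN_PRE_BI_TO_LARGE_PRE_BII_LYMPHOCYTE_DN was lower in marrow with B16F10, at -1.89 (FDR q = 0.0119), in the authors' deposited table. Its counterpart HOFFMANN_PRE_BI_TO_LARGE_PRE_BII_LYMPHOCYTE_UP was lower with B16F10 than with YUMM3.3 in marrow, at -1.74 (FDR q = 0.0231), in the authors' deposited table. HOFFMANN_LARGE_TO_SMALL_PRE_BII_LYMPHOCYTE_DN was called in none of the 7 comparisons, with values from -1.50 to 1.12 in the authors' deposited table. In YUMM3.3-bearing marrow none of the MORI sets was called, with values from -1.51 to 1.61 in the authors' deposited table.

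In spleen, the pre-BI and large pre-BII sets ending in UP were higher with both tumours. MORI_PRE_BI_LYMPHOCYTE_UP had an NES of 2.36 with B16F10 and 2.69 with YUMM3.3, and MORI_LARGE_PRE_BII_LYMPHOCYTE_UP 2.57 and 3.10, with FDR q listed as 0 for all 4 in the authors' deposited table. MORI_SMALL_PRE_BII_LYMPHOCYTE_UP was not called there, at -1.35 with B16F10 and 0.93 with YUMM3.3, in the authors' deposited table. The immature and mature sets ending in DN were higher as well. MORI_IMMATURE_B_LYMPHOCYTE_DN reached 2.75 with B16F10 and 3.19 with YUMM3.3, and MORI_MATURE_B_LYMPHOCYTE_DN 2.26 and 2.13, in the authors' deposited table. Large pre-BII cells are dividing cells, and immature and mature B cells are mostly resting. Cell cycle sets were counted in the same comparisons. Of 53 sets with cell cycle, proliferation, mitotic or E2F in their names, 36 were higher and 1 lower in spleen with B16F10. Among all sets there, 16.6% were higher and 1.60% lower. In spleen with YUMM3.3, 42 of the 53 were higher and 0 lower, beside 15.6% and 5.31% of all sets. The median NES of those 53 sets was 1.99 with B16F10 and 2.26 with YUMM3.3 in spleen, and their part in the stage sets was not tested. In marrow with B16F10, 27 of the 53 were higher and 1 lower (median 1.57), beside 20.1% and 5.00% of all sets. There MORI_LARGE_PRE_BII_LYMPHOCYTE_UP was higher, at 1.73, and MORI_MATURE_B_LYMPHOCYTE_DN lower, at -2.11, in the authors' deposited table. In marrow with YUMM3.3, 4 were higher and 10 lower (median -1.35), beside 9.68% and 6.52% of all sets. MORI_PRE_BI_LYMPHOCYTE_UP stood at 1.61 there, MORI_MATURE_B_LYMPHOCYTE_DN at 1.53 and MORI_IMMATURE_B_LYMPHOCYTE_DN at -1.13, none called, in the authors' deposited table. HOFFMANN_LARGE_TO_SMALL_PRE_BII_LYMPHOCYTE_UP, named for the step at which division stops, would by name hold genes that rise in small pre-BII cells. It was higher at 2.14 in marrow and 2.68 in spleen with B16F10 and 3.28 in spleen with YUMM3.3 in the authors' deposited table. MORI_LARGE_PRE_BII_LYMPHOCYTE_UP was called higher in the same comparisons, and MORI_SMALL_PRE_BII_LYMPHOCYTE_UP in none of them. Which stage the HOFFMANN genes mark was not tested. In marrow with YUMM3.3 the HOFFMANN set had an uncalled NES of -1.51, where MORI_LARGE_PRE_BII_LYMPHOCYTE_UP had 1.28, in the authors' deposited table. Between the tumours in marrow it was higher with B16F10, at 1.80 (FDR q = 0.0208), in the authors' deposited table. MORI_LARGE_PRE_BII_LYMPHOCYTE_DN was lower in spleen with B16F10 than in healthy animals, at -1.85 (FDR q = 0.0319), and than with YUMM3.3, at -1.98 (FDR q = 0.00948), in the authors' deposited table. In spleen MORI_SMALL_PRE_BII_LYMPHOCYTE_DN was higher with B16F10 than in healthy animals, at 1.88 (FDR q = 0.00343), and than with YUMM3.3, at 1.78 (FDR q = 0.0224), in the authors' deposited table.

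Among the 38 sets, with no count made over all listed sets, MORI_MATURE_B_LYMPHOCYTE_DN alone was called on opposite sides in the tissues with B16F10. Its NES was -2.11 in marrow (FDR q = 0.00095) and 2.26 in spleen (FDR q listed as 0) in the authors' deposited table. The leading edges differed in shape as well. In marrow it held about 16 of 63 genes within the outermost 3% of the ranked list, and in spleen about 30 within 8%, in the authors' deposited table. Between the tumours in marrow it was lower with B16F10, at -1.72 (FDR q = 0.0276), in the authors' deposited table. Whether any gene was in both leading edges cannot be seen, since the members of the sets were not analysed here. The counterpart for the mature stage, MORI_MATURE_B_LYMPHOCYTE_UP, was lower in spleen with B16F10, at -1.96 (FDR q = 0.0126), and lower than with YUMM3.3, at -1.82 (FDR q = 0.0397), in the authors' deposited table. In marrow it had an NES of -1.51 with each tumour and was not called in the authors' deposited table.

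**Figure D4:**
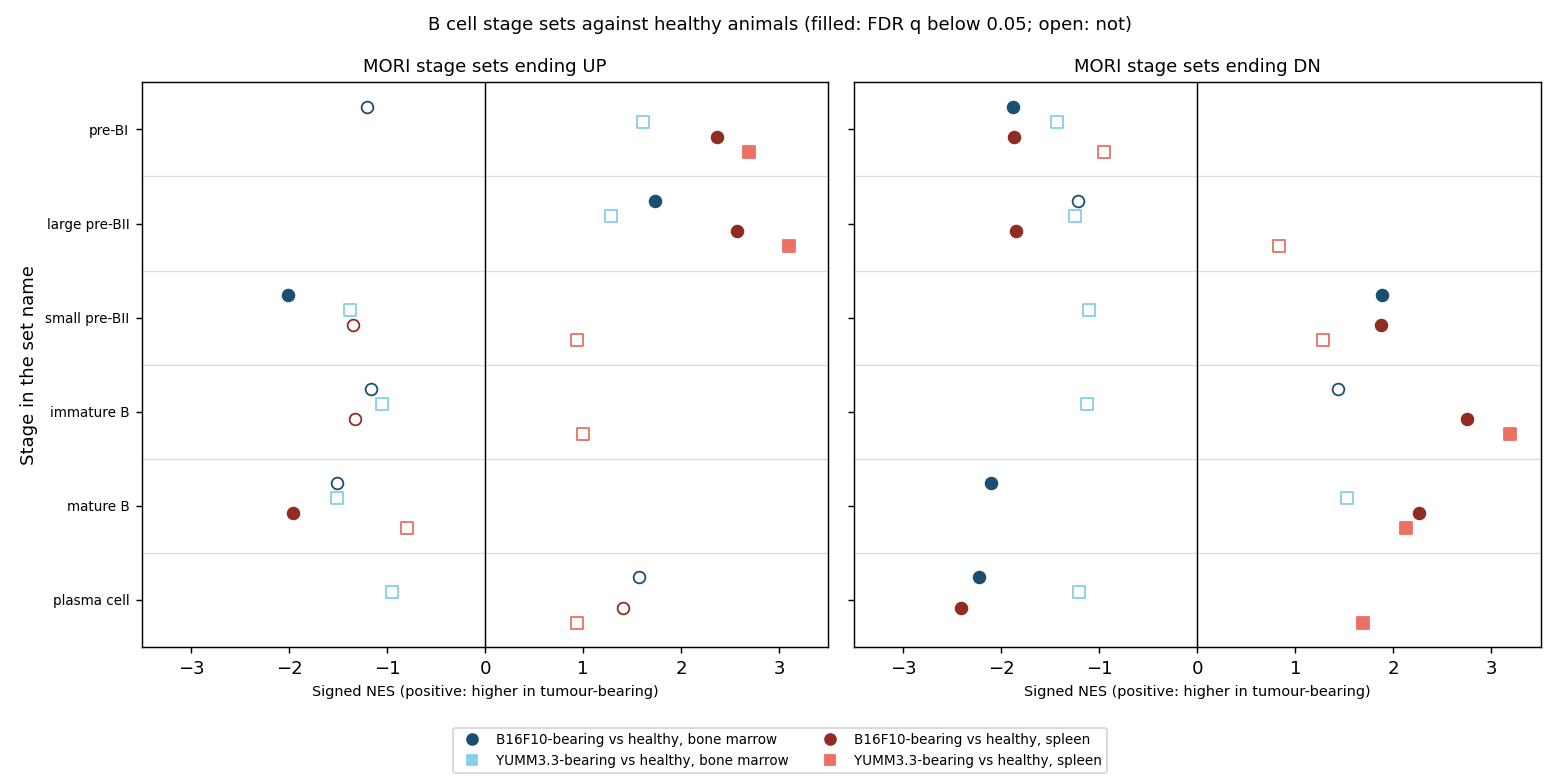
Signed NES (x axis) of the MORI stage sets ending in UP (left) and DN (right) by stage (y axis, pre-BI to plasma cell) for each tumour against healthy animals, with filled symbols at FDR q below 0.05. In spleen the pre-BI and large pre-BII sets ending in UP lie from 2.36 to 3.10 with both tumours, and the plasma cell set ending in DN lies at -2.41 with B16F10 and 1.69 with YUMM3.3.

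Of the 4 plasma cell sets not ending in DN, 1 was higher and 0 lower in marrow with B16F10. Among all sets there, 20.1% were higher and 5.00% lower. In spleen with B16F10, 0 were called in either direction, beside 16.6% of all sets higher and 1.60% lower. At an unadjusted deposited p below 0.05, 2 were higher and 0 lower in that spleen comparison, beside 1068 and 239 of all 3883 sets. TARTE_PLASMA_CELL_VS_B_LYMPHOCYTE_UP, genes above B cell level in human plasma cells, was higher in marrow with B16F10, at 1.75 (FDR q = 0.0168), and had an uncalled NES of 1.52 in spleen (FDR q = 0.0902) in the authors' deposited table. MORI_PLASMA_CELL_UP stood at 1.57 in marrow (FDR q = 0.0513) and 1.41 in spleen (FDR q = 0.163) with B16F10, short of the threshold in the authors' deposited table. SHAFFER_IRF4_TARGETS_IN_PLASMA_CELL_VS_MATURE_B_LYMPHOCYTE, targets of a factor that plasma cells need, was called in none of the 7 comparisons, with values from -1.14 to 1.34 in the authors' deposited table.

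The 3 plasma cell sets ending in DN describe genes that plasma cells turn down. In marrow with B16F10, 2 of them were lower and 1 higher, beside 5.00% of all sets lower and 20.1% higher. In spleen with B16F10, 1 was lower and 1 higher, beside 1.60% and 16.6% of all sets. MORI_PLASMA_CELL_DN was lower in marrow, at -2.23, and in spleen, at -2.41, with FDR q listed as 0 for both, in the authors' deposited table. In spleen about 21 of its 29 genes (72%) were in the leading edge, and in marrow about 13 (45%), in the authors' deposited table. It was the 1 set of the 8 ending in DN lower with B16F10 in both tissues, a count not made over all sets. With YUMM3.3 it was higher in spleen, at 1.69 (FDR q = 0.0195), and uncalled in marrow, at -1.21 (FDR q = 0.327), in the authors' deposited table. The direct spleen comparison gave -2.29 (FDR q = 0.000405) for B16F10 against YUMM3.3 in the authors' deposited table. TARTE_PLASMA_CELL_VS_B_LYMPHOCYTE_DN, genes of B cells that human plasma cells lack, was lower in marrow with B16F10, at -1.71 (FDR q = 0.0438), and uncalled in spleen, at -1.75 (FDR q = 0.0622), in the authors' deposited table. Between the tumours in spleen it was lower with B16F10, at -2.00 (FDR q = 0.00774), in the authors' deposited table.

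A further pair of sets separates plasma cells from their dividing precursors, the plasmablasts. TARTE_PLASMA_CELL_VS_PLASMABLAST_DN, 270 genes of the plasmablast, was higher with B16F10 in marrow, at 2.63, and in spleen, at 2.19, and with YUMM3.3 in spleen, at 2.60, in the authors' deposited table. It was not called with YUMM3.3 in marrow, at 1.16 (FDR q = 0.426), in the authors' deposited table. These called values stood in the same comparisons in which most cell cycle sets were higher, and the share of cell cycle genes in the set was not tested. TARTE_PLASMA_CELL_VS_PLASMABLAST_UP, the 317 genes of the plasma cell side, was called with YUMM3.3 on opposite sides in the tissues, higher in marrow at 1.95 (FDR q = 0.00234) and lower in spleen at -1.87 (FDR q = 0.0185), in the authors' deposited table. With B16F10 it was not called, at -1.32 in marrow and 1.31 in spleen, in the authors' deposited table. Between the tumours it was lower with B16F10 in marrow, at -2.07 (FDR q = 0.000852), and at 1.66 in spleen (FDR q = 0.0535), where it was not called, in the authors' deposited table.

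The remaining sets concern activation, survival signals and lymphoma. BASSO_B_LYMPHOCYTE_NETWORK, hub genes of a regulatory network inferred from human B cells, was higher with B16F10 in marrow, at 2.07 (FDR q = 0.00068), and spleen, at 1.77 (FDR q = 0.0135), and with YUMM3.3 in spleen, at 1.79 (FDR q = 0.0075), in the authors' deposited table. It was the 1 set of the 30 not ending in DN that was higher with B16F10 in both tissues. The same count was not made over all sets, of which 16.6% were higher in spleen with B16F10. MOREAUX_B_LYMPHOCYTE_MATURATION_BY_TACI_UP, tied to the survival receptor TACI, was lower in spleen with YUMM3.3, at -1.86 (FDR q = 0.0203), in the authors' deposited table. Its partner MOREAUX_B_LYMPHOCYTE_MATURATION_BY_TACI_DN was higher in that comparison, at 2.31 (FDR q = 5.07e-06), and with B16F10 in marrow, at 1.93, and spleen, at 1.70, both called, in the authors' deposited table.

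IRF4 target sets outside the plasma cell class separated the tumours in marrow. SHAFFER_IRF4_TARGETS_IN_MYELOMA_VS_MATURE_B_LYMPHOCYTE was higher with B16F10 than in healthy marrow, at 1.77 (FDR q = 0.015), and higher than with YUMM3.3, at 1.66 (FDR q = 0.0481), in the authors' deposited table. SHAFFER_IRF4_TARGETS_IN_ACTIVATED_B_LYMPHOCYTE was lower with YUMM3.3 than in healthy marrow, at -1.72 (FDR q = 0.0367), and higher with B16F10 than with YUMM3.3, at 1.85 (FDR q = 0.0151), in the authors' deposited table. SIG_PIP3_SIGNALING_IN_B_LYMPHOCYTES, a lipid second messenger pathway below the receptor, was lower in marrow with YUMM3.3, at -1.73 (FDR q = 0.0352), in the authors' deposited table. The 6 SHIN_B_CELL_LYMPHOMA_CLUSTER sets, of 16 to 35 genes each, gave 2 calls over the 7 comparisons, both with B16F10 against healthy animals. Among all sets, 5.00% were lower and 20.1% higher in that marrow comparison, and 1.60% and 16.6% in that spleen comparison. Cluster 9 was lower in marrow with B16F10, at -1.92 (FDR q = 0.00942), and cluster 8 higher in spleen with B16F10, at 1.65 (FDR q = 0.0394), in the authors' deposited table.

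The single germinal centre set, KIM_GERMINAL_CENTER_T_HELPER_UP, is named for the T helper cells of germinal centres and not for B cells. It was lower in marrow with YUMM3.3, at -2.24 (FDR q = 0.000332), and higher in spleen with YUMM3.3, at 1.71 (FDR q = 0.0156), in the authors' deposited table. With B16F10 it was uncalled in marrow, at -1.52, and in spleen, at -1.62, in the authors' deposited table. In the direct comparisons it was higher with B16F10 in marrow, at 2.13 (FDR q = 0.00107), and lower in spleen, at -1.87 (FDR q = 0.0276), in the authors' deposited table.

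Between the melanoma lines, 1 of the 38 sets was called, beside 11.8% of all sets higher in YUMM3.3 and 1.47% lower. MORI_IMMATURE_B_LYMPHOCYTE_DN was higher in YUMM3.3 than in B16F10, at 1.68 (FDR q = 0.0213), in the authors' deposited table. Its neighbours outside the name rule, MORI_LARGE_PRE_BII_LYMPHOCYTE_UP, at 1.73 (FDR q = 0.0134), and HOFFMANN_LARGE_TO_SMALL_PRE_BII_LYMPHOCYTE_UP, at 1.64 (FDR q = 0.0334), were called with it in the authors' deposited table. The 8 receptor sets ran from -0.97 to 1.22 between the lines, and none had an unadjusted deposited p below 0.05. Of all 3871 sets, 1027 were higher in YUMM3.3 and 196 lower at that p.

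Related immune sets outside the name rule were read beside these. KEGG_PRIMARY_IMMUNODEFICIENCY, genes whose loss disables lymphocytes, was lower with B16F10 in marrow, at -2.53 (FDR q listed as 0), and in spleen, at -2.20 (FDR q = 0.000651), in the authors' deposited table. PASQUALUCCI_LYMPHOMA_BY_GC_STAGE_DN, from lymphomas sorted by germinal centre stage, was also lower in both, at -2.60 and -2.11, in the authors' deposited table. Its counterpart PASQUALUCCI_LYMPHOMA_BY_GC_STAGE_UP was higher in spleen with B16F10, at 1.73 (FDR q = 0.019), in the authors' deposited table. With YUMM3.3 neither of the sets lower with B16F10 was called in either tissue, with values from -1.29 to 1.16 in the authors' deposited table. KEGG_INTESTINAL_IMMUNE_NETWORK_FOR_IGA_PRODUCTION, the network behind class switching to IgA, was lower with B16F10 in marrow, at -2.06 (FDR q = 0.00189), and uncalled in spleen, at -1.16, in the authors' deposited table. Sets of antigen presentation, a task B cells share with myeloid cells, were not called lower in spleen with B16F10. REACTOME_MHC_CLASS_II_ANTIGEN_PRESENTATION was higher in spleen with B16F10, at 1.74 (FDR q = 0.0167), and with YUMM3.3, at 1.73 (FDR q = 0.0135), in the authors' deposited table. KEGG_ANTIGEN_PROCESSING_AND_PRESENTATION was lower in marrow with B16F10, at -1.83 (FDR q = 0.0212), and higher there with YUMM3.3, at 1.72 (FDR q = 0.0248), in the authors' deposited table. Between the tumours in marrow it was lower with B16F10, at -2.04 (FDR q = 0.00136), in the authors' deposited table. In spleen it was not called, at 0.97 with B16F10 and -1.22 with YUMM3.3, in the authors' deposited table. KEGG_HEMATOPOIETIC_CELL_LINEAGE was lower in marrow with B16F10, at -1.97 (FDR q = 0.0048), and in spleen with YUMM3.3, at -2.18 (FDR q = 0.00154), in the authors' deposited table.

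Sets named for other cell types were counted in the same comparisons, beside 5.00% of all sets lower and 20.1% higher in marrow with B16F10, and 1.60% lower and 16.6% higher in spleen with B16F10. Of 19 T and NK cell sets, 4 were lower and 2 higher in marrow with B16F10, and 6 were lower and 2 higher in spleen with B16F10. KEGG_T_CELL_RECEPTOR_SIGNALING_PATHWAY, named after values were seen, had an NES of -2.37 in spleen with B16F10 (FDR q listed as 0) in the authors' deposited table. It was not called between the tumours in spleen, at -1.47 (FDR q = 0.22), in the authors' deposited table. Of 19 neutrophil, monocyte, macrophage and dendritic cell sets, 8 were higher and 3 lower in marrow with B16F10, and 5 higher and 0 lower in spleen with B16F10. Between the tumours in spleen, where 9.63% of all sets were higher with B16F10 and 1.47% lower, 8 of those 19 myeloid sets were higher and 0 lower. The 30 sets followed here had 0 higher and 5 lower in that comparison. Of those 5, 1 was KIM_GERMINAL_CENTER_T_HELPER_UP, named for T helper cells. In spleen with YUMM3.3, 15.6% of all sets were higher and 5.31% lower. Erythroid sets in spleen were higher in 4 of 13 cases with B16F10 and in 3 with YUMM3.3, with 0 and 1 lower. Platelet sets were higher in 1 of 11 cases with B16F10 in spleen and 0 were lower, and with YUMM3.3 1 was higher and 5 were lower. The part of other cell types in the B cell results was not tested.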

How the data were processed

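RNA-seq libraries were made from myeloid cells and melanoma lines. The submitters' processing notes list the mm10 build and the tools DESeq2 1.22.2, featureCounts 1.6.0, STAR 2.7.1a and FastQC 0.11.8, without saying what each did. How the data were permuted, and the enrichment tool's version and set release, are not stated in the labels or headers. The authors deposited 14 enrichment reports, 1 per direction for each of 7 comparisons. Per the file headers, each set has a size, an enrichment score and its normalised form, the rank at the maximum, the leading edge, and a nominal p-value, FDR q-value and family-wise p-value. The smallest nonzero nominal p was 0.00103, less than relabelling so few libraries can give.

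Each myeloid report was taken to list sets of the group its title names first, and the cell line reports went by their up and down labels. As a check, the 51 sets called in opposite directions by the tumours against healthy marrow were all listed on the matching side between the tumours, as were all 35 in spleen. A reversal of all comparisons of a tissue together would not show in this check.

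Groups came from the tissue, disease and cell type labels. Counts, medians and ranges were computed with Python 3.11.15 and pandas 2.3.3, tested on simulated reports. Genes in a leading edge are the deposited percentage of set size, rounded. No test was added. Sets were named where they were called in any comparison, or belong to the receptor, precursor or plasma cell classes, the stage series or the related list. The members and lists were chosen with earlier results of these data known. Counts were repeated at FDR q below 0.25, and counts and medians for sets of 25 to 200 genes. Medians were also repeated with DN sets kept and their sign turned, and with each source counted once. Gene annotation and sequences were not used.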

Additional observations from a re-analysis of the deposited data

How the results depend on the processing

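No paired analysis was possible because the files hold no value per library. For the same reason no library could be left out. At a deposited FDR q below 0.25, the lower counts of the 30 sets became 14 in B16F10 marrow and 12 in YUMM3.3 marrow against healthy, and the higher counts 8 in B16F10 spleen and 7 in YUMM3.3 spleen. Between the tumours, B16F10 against YUMM3.3, they became 7 higher and 7 lower in marrow and 4 higher and 9 lower in spleen, and between the lines 3 were higher in YUMM3.3. The other 5 counts stayed within 1.5 times.

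With sets of 25 to 200 genes alone, 1 set was lower with B16F10 than with YUMM3.3 in marrow, and 1 was lower in YUMM3.3 than in healthy spleen, against 2 in each before. The other 12 counts stayed within 1.5 times. At that limit, the count lower in B16F10 marrow against healthy went from 6 to 4. HADDAD_B_LYMPHOCYTE_PROGENITOR (215 genes) and SHIN_B_CELL_LYMPHOMA_CLUSTER_9 (18 genes) fell outside the size range.

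Median NES kept its sign under every alternative run. With DN sets turned and kept it was -1.17 in B16F10 marrow, -1.17 in B16F10 spleen and 0.87 in YUMM3.3 spleen against healthy, -0.99 between the tumours in spleen and 0.86 between the lines. With sets of 25 to 200 genes it was -1.18 in B16F10 marrow, -1.14 in YUMM3.3 marrow and 0.94 in YUMM3.3 spleen against healthy, 1.02 between the tumours in marrow, -1.03 between them in spleen and 0.86 between the lines. With each source counted once it was -1.21 in B16F10 marrow, -1.25 in YUMM3.3 marrow, -1.32 in B16F10 spleen and 0.78 in YUMM3.3 spleen against healthy, 1.02 between the tumours in marrow, -1.36 between them in spleen and 0.89 between the lines. The spleen median between the tumours, -0.14 over the 30 sets, moved most of these. There, 15 of the 30 sets were listed higher and 15 lower. That median lay between the nearest values on each side, -1.03 and 0.75, with no set near it, so a small change of sets moves it far. The cause of the other shifts was not tested, and depth could not be assessed.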

Other observations

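In marrow of B16F10-bearing against healthy animals, the precursor and stage sets peaked at different depths of the ranked list. HOFFMANN_SMALL_PRE_BII_TO_IMMATURE_B_LYMPHOCYTE_DN peaked at 3% of the list with about 9 of 32 genes, and MORI_SMALL_PRE_BII_LYMPHOCYTE_UP at 3% with about 14 of 67, in the authors' deposited table. MORI_PRE_BI_LYMPHOCYTE_UP peaked at a listed 0% with about 5 of 71 genes, and its NES of -1.21 was not called in the authors' deposited table. HADDAD_B_LYMPHOCYTE_PROGENITOR peaked at 11% with about 75 of 215 genes and HOFFMANN_IMMATURE_TO_MATURE_B_LYMPHOCYTE_DN at 10% with about 12 of 42 in the authors' deposited table. The 4 receptor sets called lower in the same comparison peaked at 11% to 13%, and the 1 called higher at 20%, in the authors' deposited table. In spleen MORI_PRE_BI_LYMPHOCYTE_UP peaked on the other side, at 12% with about 46 genes with B16F10 and at 8% with about 41 genes with YUMM3.3, in the authors' deposited table.

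In spleen of YUMM3.3-bearing against healthy animals, BIOCARTA_BCR_PATHWAY and SA_B_CELL_RECEPTOR_COMPLEXES each had an NES of -1.27 and peaked at 1% of the list with about 2 genes, of 29 and 21, in the authors' deposited table. These were the 2 of the 8 receptor sets on the lower side in that comparison.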
